A study of Mus musculus with 8 samples.

Results

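Dppa2, Dppa3, Dppa4, Trim28, Setdb1, Kdm1a, Ehmt2, Chaf1a, Chaf1b and Rif1 are regulators known for setting how often mouse embryonic stem cells (ESCs) enter a state that resembles the 2-cell embryo. These 10 genes are taken by name, out of 20278 genes listed for the series, and all 10 were tested; the list was drawn up with earlier results of these data known. They were read in N33 ESCs, a line whose strain is C57BL/6 in the sample labels and C57BL/6J in the study's methods. The study had 4 culture conditions and 2 replicates of each. The −F cells grew on gelatin in medium with serum and no feeders. With feeders (F), the same medium was used on mouse embryonic fibroblasts whose division had been stopped by mitomycin C. The F2i condition joined feeders, serum and 2i, a pair of inhibitors of Gsk3β (CHIR99021) and Mek (PD0325901). The NB2i condition had neither feeders nor serum, and cells grew in defined N2B27 medium with 2i (CHIR99021 at 3 µM and PD0325901 at 1 µM) on plates coated with poly-L-ornithine and laminin. All conditions received LIF at 1000 U/ml, and the serum conditions held 20% fetal bovine serum. The dose of 2i on feeders was not given apart from that in N2B27. NB2i differs from −F in serum, medium, plate coating and 2i, which cannot be told apart. From F2i it differs in feeders, serum, medium and growth surface, which cannot be told apart either. Every sample is of 1 cell line. The sample labels describe a step that parts ESCs from feeders by differing adherence, which the study's methods for the RNA-seq do not mention.

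A small and changing share of ESCs switches on genes of the 2-cell embryo, among them the Zscan4 family, which is known for telomere lengthening by recombination. Dppa2 and Dppa4 are DNA-binding partners that open this state through the transcription factor Dux, and Dppa3 (Stella) is a maternal factor that limits DNA methylation and has also been described as an activator. The other 7 genes hold the state closed: Trim28 and the H3K9 methyltransferase Setdb1 silence endogenous retroviruses, Kdm1a and Ehmt2 are a histone demethylase and an H3K9 methyltransferase, Chaf1a and Chaf1b are subunits of the histone chaperone CAF-1, and Rif1 controls replication timing and heterochromatin. The question put to the data was whether the levels of these regulators moved with the state readout, the summed counts of Zscan4a, b, c, d and f.

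Total expected counts, the number of reads that RSEM assigns to genes, lay between 20129641 and 20664488 per sample. Counts of replicates were farther apart than sampling alone would put them (chi-square per degree of freedom of 1.885 in NB2i to 3.712 in −F), so no sample was counted as a repeat of another. The series describes the replicates as biological duplicates. The edgeR p-values below rest on the spread between replicates, pooled over the 4 conditions and shared across genes. All 8 markers of ESCs were present in every condition, with summed levels from 2115.85 to 2500.69 FPKM (expected counts scaled by transcript length and depth). A list of 10 markers of primitive endoderm and germ cells summed to 73.7 to 82.2 FPKM. Single markers differed between conditions in both lists, among them the ESC gene Utf1 (mean of 478 FPKM in −F and 47.1 in NB2i), the endoderm gene Dab2 (5.16 in F and 0.165 in NB2i) and the germ cell genes Dazl (14.7 in F2i and 2.78 in NB2i) and Prdm14 (4.55 in −F and 20.3 in NB2i). For fibroblast markers the sum differed as well. The 14 of them summed to 17.61 to 18.05 FPKM in −F, 281.53 to 293.83 in F, 707.39 to 715.55 in F2i and 3.76 to 4.46 in NB2i, and 5, 13, 13 and 0 of them reached a mean of 1 FPKM. In NB2i the matrix genes Postn, Lum and Dcn and the calcium-binding protein gene S100a4 were at 0. The fibroblast markers were thus higher with feeders than without. Their sums also differed between F and F2i and between −F and NB2i. The part of feeder cells in the results below was not tested. Since RNA was sequenced in bulk, fewer cells in a state and less RNA per cell cannot be told apart.

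Zscan4 transcripts were abundant on feeders, most of all with 2i, and nearly absent in N2B27 with 2i. The summed expected counts were 55 and 44 in −F, 1154 and 1208 in F, 2854 and 2851 in F2i and 5 and 1 in NB2i, so the 4 conditions did not overlap. Per total count, F exceeded −F by 23.9-fold (exact 95% counting interval 19.5 to 29.5) and F2i exceeded F by 2.43-fold (2.32 to 2.55). NB2i stood below −F by 16.6-fold (7.37 to 46.4) and below F2i by 967-fold (444 to 2636). These intervals cover counting error only, and the size of both falls rests on 5 counts in NB2i replicate 1 and 1 in replicate 2. In the edgeR fit the log2 change was −3.93 against −F and −9.85 against F2i, −5.40 and −11.33 without NB2i replicate 1, and −3.21 and −9.14 without NB2i replicate 2. In the quasi-likelihood test of edgeR, with p adjusted after Benjamini and Hochberg, the sum rose by 4.60 on the log2 scale in F against −F (SE 0.10, adjusted p = 2.77e-19) and by 1.32 in F2i against F (SE 0.056, adjusted p = 1.37e-14), and the adjusted p was 5.47e-09 for the lower level in NB2i than in −F. For each of the 5 genes every F2i sample exceeded every F sample, and every F sample exceeded every −F sample. The most abundant, Zscan4f, had 13.99 and 12.89 FPKM in F and 32.03 and 33.27 in F2i, while Zscan4c and Zscan4f were at 0 counts in both NB2i samples. The fibroblast markers rank the 4 conditions as the Zscan4 sum does.

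The 5 Zscan4 genes are near-identical, which is why they were summed. On GRCm38 (mm10) they lie between 10794241 and 11402318 of chromosome 7, where RefSeq annotates Zscan4a as a transcribed pseudogene and the others as protein coding. Of the 50-base stretches of their transcripts, 49.57% (Zscan4d) to 95.34% (Zscan4f) also occur in another gene. For genes listed in the series the share was 47.27% (Zscan4b) to 87.58% (Zscan4f), and RSEM divides reads among such genes. For Zscan4b the share with any gene was 92.49%. Reads of copies that are not listed may be counted in the sum, which is uncertain to that extent. The 250 bases before the start of transcription, taken from RefSeq (GRCm38.p6), were on hand for Zscan4b, c, d and f. They were 94.7% to 99.6% identical in alignment, and 226 of 227 aligned bases were the same in Zscan4c and Zscan4f. They are shown for the pair that differed most in CpG count, on the strand of the gene and with a TATAAA box in capitals: Zscan4b from chr7:10905051-10905300 (minus strand) and Zscan4f from chr7:11397665-11397914 (plus strand).
Zscan4b: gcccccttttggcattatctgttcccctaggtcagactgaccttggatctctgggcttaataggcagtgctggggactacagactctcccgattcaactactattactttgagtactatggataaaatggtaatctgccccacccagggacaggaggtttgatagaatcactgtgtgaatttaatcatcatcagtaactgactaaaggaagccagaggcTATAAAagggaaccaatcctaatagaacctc
Zscan4f: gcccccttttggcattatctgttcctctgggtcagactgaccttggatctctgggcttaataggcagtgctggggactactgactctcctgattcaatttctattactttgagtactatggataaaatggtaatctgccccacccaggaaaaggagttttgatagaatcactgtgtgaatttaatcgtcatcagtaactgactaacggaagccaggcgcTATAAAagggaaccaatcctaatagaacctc
TATAAA, searched on both strands, occurred in all 4 Zscan4 windows and in 12.368% of the 32851 windows of this length in the RefSeq table. Zscan4b held 1 CpG and the other windows 3 each, against a median of 6 over all windows.

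**Figure D1:**
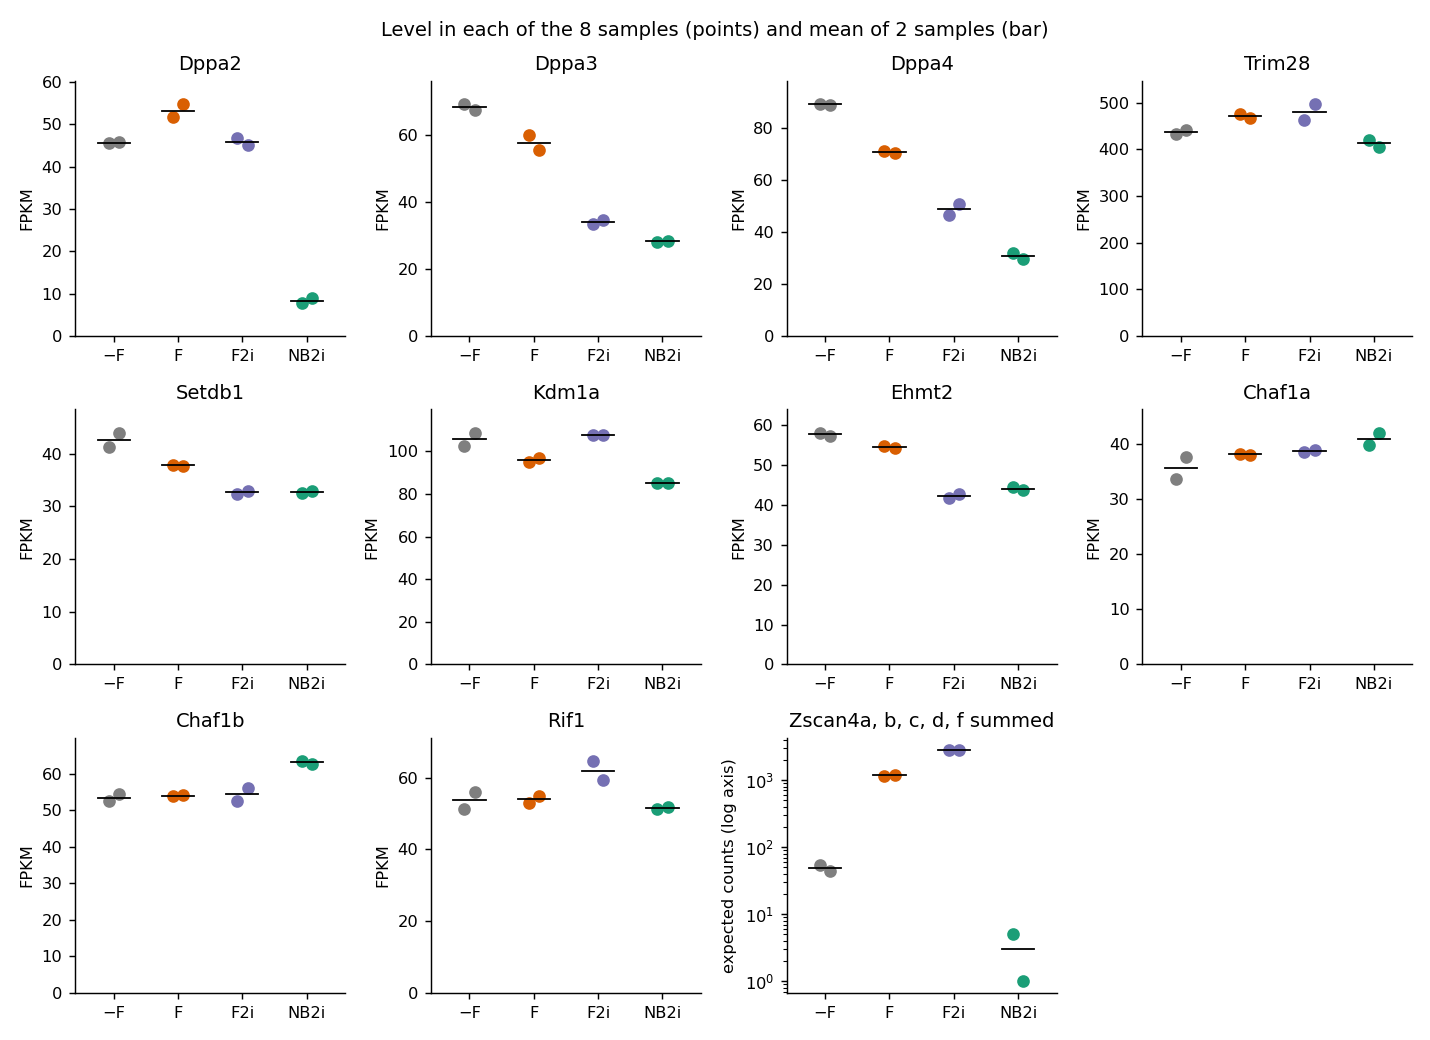
Level of each regulator in FPKM (linear axes from 0) and the summed expected counts of the Zscan4 genes (log axis) in the 4 culture conditions. Points are the 2 samples of a condition and bars their mean; the 2 NB2i points of Dppa2, at 7.74 and 8.97 FPKM, lie far below all its others, while no repressor's condition means span more than 1.368-fold.

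Among the activators, Dppa2 set NB2i apart. Its level was 45.55 and 45.73 FPKM in −F, 51.59 and 54.72 in F, 46.70 and 45.03 in F2i, and 7.74 and 8.97 in NB2i. The NB2i samples thus lay below all 6 others, those in F above all others, and −F and F2i overlapped. Its mean was 6.362-fold higher in F than in NB2i, the widest span of the 10 genes. Dppa2 fell by 2.45 on the log2 scale in NB2i against F2i (SE 0.065, edgeR adjusted p = 2.9e-18), which is 5.47-fold, and by 2.38 against −F (SE 0.065, edgeR adjusted p = 1.97e-18). Against F the fall was 6.17-fold. The changes among the serum conditions were small. Dppa2 rose 1.18-fold from −F to F (SE of the log2 change 0.051, edgeR adjusted p = 0.000596) and fell 1.13-fold from F to F2i (edgeR adjusted p = 0.00601), and F2i and −F did not differ beyond their spread (log2 difference 0.07, edgeR adjusted p = 0.247). The rise in F did not pass limma's test on log2(FPKM + 1) (adjusted p = 0.0523) or with 0.1 in place of 1 (adjusted p = 0.0871). The fall in F2i did not pass without F replicate 2 (edgeR adjusted p = 0.126) or without F2i replicate 2 (edgeR adjusted p = 0.0653), nor in limma's test on log2(FPKM + 0.1) (adjusted p = 0.0716).

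Dppa4, the binding partner of Dppa2, instead declined step by step. It stood at 89.29 and 89.11 FPKM in −F, 71.41 and 70.42 in F, 46.75 and 50.89 in F2i and 32.09 and 29.55 in NB2i, and no 2 conditions overlapped. Each step down passed the test: the log2 change was −0.31 (SE 0.047, edgeR adjusted p = 1.69e-05) from −F to F, −0.52 (SE 0.050, edgeR adjusted p = 1.28e-08) from F to F2i, and −0.64 (SE 0.055, edgeR adjusted p = 1.34e-09) from F2i to NB2i. From −F to NB2i the fall came to 2.77-fold (edgeR adjusted p = 1.39e-16). All 3 steps held under every alternative fit that was run.

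Dppa3 had the same order of conditions as Dppa4. Its level was 69.31 and 67.66 FPKM in −F, 60.13 and 55.51 in F, 33.42 and 34.63 in F2i and 28.10 and 28.42 in NB2i, again without overlap. The largest of its steps was that from F to F2i, a 1.65-fold fall (log2 change −0.73, SE 0.066, edgeR adjusted p = 4.64e-09). It was lower in F than in −F by 0.22 on the log2 scale (SE 0.060, edgeR adjusted p = 0.00541), a call lost without F replicate 2 (edgeR adjusted p = 0.0733), and lower in NB2i than in F2i by a log2 change of −0.26 (SE 0.072, edgeR adjusted p = 0.00324). From −F to NB2i the fall was 2.31-fold (edgeR adjusted p = 3.38e-13).

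None of the 3 activators therefore had the order of the Zscan4 sum, which was F2i over F over −F over NB2i. Dppa3 and Dppa4 were lower in both feeder conditions than in −F, where the sum was higher in the former. In NB2i all 3 activators and the Zscan4 sum had their lowest mean. Among the repressors, only Trim28 and Rif1 had the sum's order in their condition means. From F2i, F and −F to NB2i, Trim28 had 480.02, 471.5, 437.5 and 413.1 FPKM and Rif1 61.88, 53.92, 53.67 and 51.62. The highest mean was only 1.162-fold the lowest for Trim28 and 1.199-fold for Rif1. Samples of F and F2i overlapped for Trim28, and those of −F overlapped with F and NB2i for Rif1. Neither gene differed beyond its spread between NB2i and −F.

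Part of the reads of these activators may belong to other loci. Dppa2 and Dppa4 lie next to each other on chromosome 16, at chr16:48310274-48319513 and chr16:48283735-48294292 on GRCm38 with 15981 bases between them, and Dppa3 lies at chr6:122626424-122630271. In the GENCODE transcripts, 36.7% of the 50-base stretches of Dppa2 occur in another gene (most often Gm9788), as do 35.94% of those of Dppa4 (Gm14058) and 17.73% of those of Dppa3 (the pseudogene Dppa3-ps). None of those other genes is listed in the tables used here, so the levels of the 3 activators are uncertain to that extent.

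**Figure D2:**
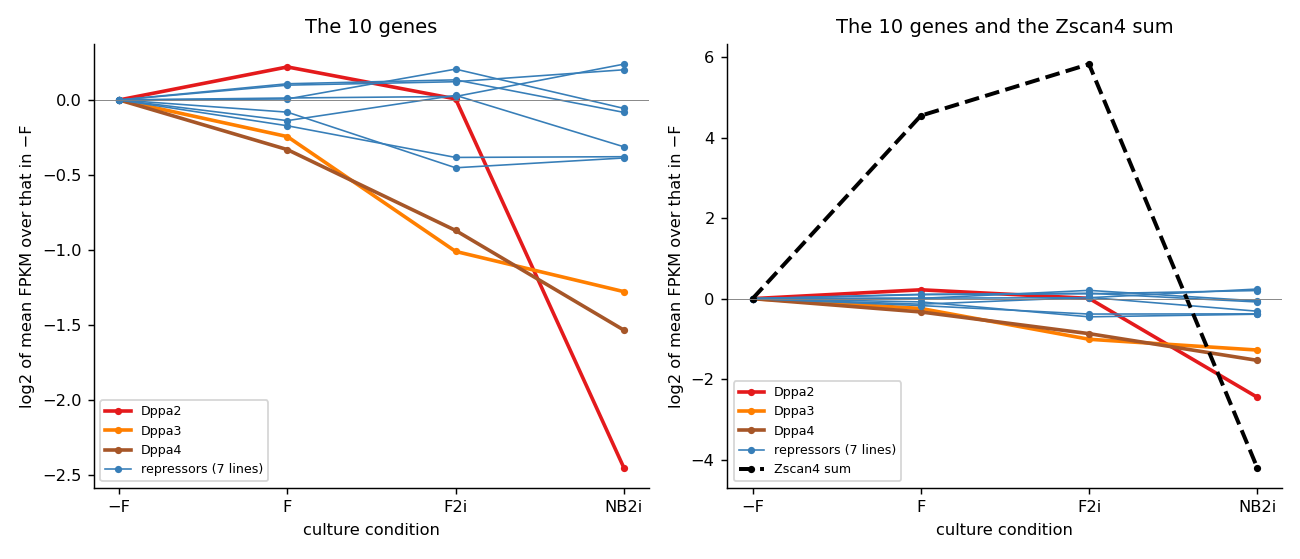
Log2 of the mean FPKM of each condition over that in −F for the 10 regulators (left) and for the same genes with the Zscan4 sum (right); lines join the means of 2 samples and do not imply a course in time. Dppa2, Dppa3 and Dppa4 end lowest in NB2i, the 7 repressors (thin blue lines) stay close to 0, and the Zscan4 sum (dashed) goes up with feeders and 2i and down in NB2i.

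The repressors were abundant in all 4 conditions and moved little. Trim28 (KAP1), the corepressor that zinc-finger proteins bring to retroviral elements, was the highest of the 10 genes and ranked 138 by mean FPKM among all genes listed. It measured 432.57 and 442.43 FPKM in −F, 475.10 and 467.89 in F, 463.19 and 496.85 in F2i and 421.13 and 405.10 in NB2i. The NB2i samples were below all others, and those of F and F2i overlapped. Trim28 was 1.16-fold lower in NB2i than in F2i (log2 change −0.21, SE 0.044, edgeR adjusted p = 0.000262), and NB2i and −F did not differ beyond their spread (log2 difference −0.02, edgeR adjusted p = 0.76). Its rise from −F to F was 1.09-fold (SE of the log2 change 0.044, edgeR adjusted p = 0.0209) and was lost in 6 of 16 alternatives, among them the fits without −F replicate 1 (edgeR adjusted p = 0.0741), F replicate 1 (0.0971) or F replicate 2 (0.0661).

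Setdb1, which Trim28 recruits to methylate H3K9, was highest in −F. Its values were 41.19 and 44.00 FPKM in −F, 37.91 and 37.70 in F, 32.36 and 32.97 in F2i and 32.64 and 32.91 in NB2i. The −F samples lay above those of F, the F samples above those with 2i, and the conditions with 2i overlapped. Setdb1 fell 1.13-fold from F to F2i (log2 change −0.17, SE 0.044, edgeR adjusted p = 0.00221) and was 1.24-fold lower in NB2i than in −F (edgeR adjusted p = 1.49e-06). The step from −F to F was −0.15 on the log2 scale (SE 0.043, edgeR adjusted p = 0.00833) and did not pass without −F replicate 2 (edgeR adjusted p = 0.0823). Of its 50-base stretches, 9.37% occur in another gene, and 6.64% in a gene listed in the tables.

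Kdm1a (LSD1), the H3K4 demethylase of the CoREST complex, went up and down between conditions. It had 102.38 and 108.72 FPKM in −F, 94.98 and 96.90 in F, 107.81 and 107.82 in F2i and 84.95 and 85.11 in NB2i. NB2i was below all other samples and F next above it, while −F and F2i overlapped. Kdm1a rose 1.15-fold from F to F2i (log2 change 0.21, SE 0.042, edgeR adjusted p = 0.000258) and fell 1.26-fold from F2i to NB2i (log2 change −0.34, SE 0.042, edgeR adjusted p = 5e-07). Its lower level in F than in −F, a log2 change of −0.12 (SE 0.042, edgeR adjusted p = 0.0329), was lost in 6 of 16 alternatives, among them the fits without −F replicate 2 (edgeR adjusted p = 0.213), F replicate 1 (0.177) or F replicate 2 (0.063). The difference between F2i and −F did not pass (log2 difference 0.09, edgeR adjusted p = 0.058) but did without −F replicate 2 (edgeR adjusted p = 0.00729).

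Ehmt2 (G9a), which writes H3K9 dimethylation in euchromatin, had the widest span of the repressors at 1.368-fold. It was at 58.08 and 57.19 FPKM in −F, 54.78 and 54.17 in F, 41.67 and 42.60 in F2i and 44.53 and 43.64 in NB2i, so both conditions with 2i lay below both without it. The fall from F to F2i was 1.25-fold (log2 change −0.33, SE 0.041, edgeR adjusted p = 6.75e-07) and that from −F to NB2i 1.24-fold (log2 change −0.32, SE 0.041, edgeR adjusted p = 4.5e-07). Neither −F and F (edgeR adjusted p = 0.236) nor F2i and NB2i (edgeR adjusted p = 0.138) differed beyond their spread.

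The CAF-1 subunits, which load histones behind the replication fork, were highest in NB2i. Chaf1b measured 52.53 and 54.46 FPKM in −F, 53.83 and 54.13 in F, 52.55 and 56.17 in F2i and 63.47 and 62.75 in NB2i. Only the NB2i samples stood apart from the rest, and the other conditions overlapped. Chaf1b was 1.17-fold higher in NB2i than in F2i (log2 change 0.22, SE 0.046, edgeR adjusted p = 0.000265) and 1.24-fold higher than in −F (edgeR adjusted p = 4.2e-06). Chaf1a, the large subunit, had 33.69 and 37.61 FPKM in −F, 38.26 and 38.08 in F, 38.65 and 38.91 in F2i and 39.87 and 42.09 in NB2i. Neighbouring conditions in this order did not differ beyond their spread, with edgeR adjusted p-values of 0.0605, 0.314 and 0.137, whereas NB2i exceeded −F by 1.20-fold (log2 change 0.27, SE 0.050, edgeR adjusted p = 5.92e-05). The −F replicates of Chaf1a lay far apart, and without replicate 2 of −F its higher level in F passed the test as well (log2 change 0.21, edgeR adjusted p = 0.00234). Chaf1a also overlaps Ubxn6 in the annotation, and reads of the overlap cannot be assigned with certainty.

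Rif1 peaked in F2i. It measured 51.37 and 55.97 FPKM in −F, 52.94 and 54.89 in F, 64.57 and 59.19 in F2i and 51.34 and 51.90 in NB2i. The F2i samples lay above all others, while those of −F overlapped with both F and NB2i. Rif1 rose 1.18-fold from F to F2i (log2 change 0.24, SE 0.048, edgeR adjusted p = 0.000274) and fell 1.19-fold from F2i to NB2i (log2 change −0.26, SE 0.048, edgeR adjusted p = 9.92e-05). The rise did not pass limma's test on log2(FPKM + 0.1) (adjusted p = 0.0536).

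RefSeq windows of the 250 bases upstream were on hand for 6 of the 10 regulators, Trim28, Setdb1, Kdm1a, Ehmt2 (2 starts), Chaf1a and Chaf1b. Windows for Dppa2, Dppa3, Dppa4 and Rif1 were not used here. The 7 windows held 13 (Setdb1) to 36 (an Ehmt2 start) CpG pairs, so all were above the median of 6, and none held TATAAA. Such counts are common: 31.54% of all windows held at least as many CpG pairs as that of Setdb1, and 23.52% as many as that of Trim28. For Chaf1a the share was 7.61%. Those with the fewest and the second-most CpG pairs are printed on the strand of the gene, with CpG in capitals, for comparison with the Zscan4 windows above: Setdb1 from chr3:95357203-95357452 (minus strand) and Chaf1a from chr17:56040166-56040415 (plus strand).
Setdb1: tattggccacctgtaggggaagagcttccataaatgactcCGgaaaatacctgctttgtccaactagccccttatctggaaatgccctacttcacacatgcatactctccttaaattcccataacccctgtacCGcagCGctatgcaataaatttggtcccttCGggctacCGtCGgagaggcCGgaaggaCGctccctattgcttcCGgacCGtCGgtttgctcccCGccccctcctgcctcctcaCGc
Chaf1a: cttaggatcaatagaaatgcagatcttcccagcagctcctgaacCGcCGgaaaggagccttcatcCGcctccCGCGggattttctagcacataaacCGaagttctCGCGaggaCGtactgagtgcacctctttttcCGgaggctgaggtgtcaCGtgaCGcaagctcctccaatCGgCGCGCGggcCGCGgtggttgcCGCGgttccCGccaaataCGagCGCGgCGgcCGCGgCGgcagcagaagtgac
The E-box CACGTG, a palindrome that Myc and its partners can bind, occurred in the windows of Ehmt2 (2 copies and 1) and Chaf1a (1) and in 6.021% of all windows. CTTTGAT, a core of the Tcf motif found in 3.205% of all windows, did not occur in them on either strand. Such matches only describe these letters.

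**Figure D3:**
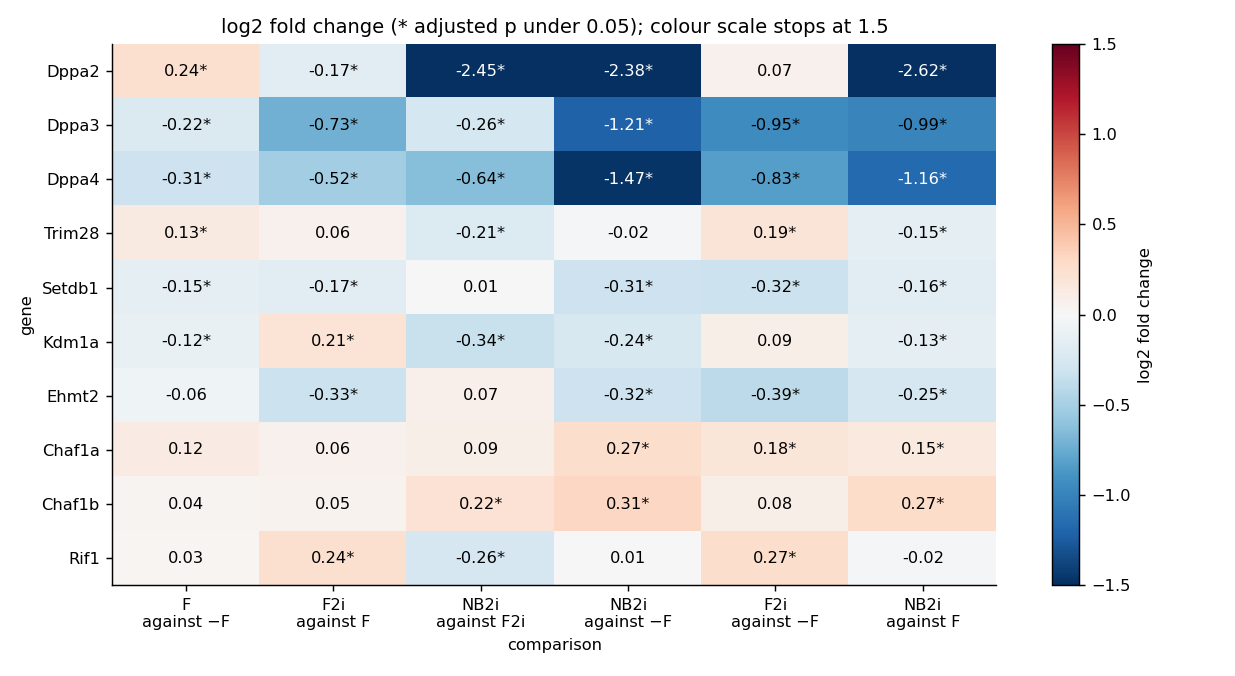
Log2 fold changes of the 10 regulators in the 6 pairwise comparisons, where red is higher and blue lower in the condition named first and an asterisk marks an edgeR adjusted p under 0.05. Dppa3 and Dppa4 are lower in all 6 comparisons, and all values past 1 in size belong to Dppa2, Dppa3 or Dppa4 in comparisons with NB2i.

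The counts of regulators that changed were read against all 15287 genes tested, because many genes passed the test in each comparison. Comparisons share samples with each other, so their values stand side by side and are not independent. In F against −F, Dppa2 and Trim28 rose and Dppa3, Dppa4, Setdb1 and Kdm1a fell, 2 and 4 of 10, where 21.7% of all genes were higher and 18.5% lower. No regulator reached a 2-fold change, as did 7.24% of all genes. The median size of the log2 change was 0.13 over the regulators and 0.20 over all genes. The Zscan4 sum rose in this comparison.

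In F2i against F, Kdm1a and Rif1 rose and Dppa2, Dppa3, Dppa4, Setdb1 and Ehmt2 fell. This made 2 of 10 higher (27.3% of all genes) and 5 of 10 lower (27.4%), with none past 2-fold (13.4%). The median size of the log2 change was 0.19 against 0.28 over all genes. In F2i against −F, which joins both steps, Trim28, Chaf1a and Rif1 were higher, 3 of 10 (34.5% of all genes), and Dppa3, Dppa4, Setdb1 and Ehmt2 lower, 4 of 10 (33.3%). None was past 2-fold (21.5%), although Dppa3 came to 1.93-fold lower (edgeR adjusted p = 2.23e-11) and Dppa4 to 1.78-fold (edgeR adjusted p = 1.93e-12), while the Zscan4 sum rose by 5.92 on the log2 scale (SE 0.093, edgeR adjusted p = 1.88e-22). Trim28 and Chaf1a did not pass limma's test on log2(FPKM + 1) (adjusted p = 0.0547 and 0.123) or on log2(FPKM + 0.1) (0.0677 and 0.145). In this comparison Chaf1a did not pass without −F replicate 1 (edgeR adjusted p = 0.0702), and Chaf1b passed without F2i replicate 1 (edgeR adjusted p = 0.0485).

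Against F2i, NB2i had 1 of 10 regulators higher, Chaf1b (33.3% of all genes), and 6 of 10 lower (30.8%), namely Dppa2, Dppa3, Dppa4, Trim28, Kdm1a and Rif1. Dppa2 alone passed 2-fold, as did 19.3% of all genes. Against −F, the comparison of cultures without feeders, NB2i had Chaf1a and Chaf1b higher, 2 of 10 (36.9%), and Dppa2, Dppa3, Dppa4, Setdb1, Kdm1a and Ehmt2 lower, 6 of 10 (35.4%). Here the 3 activators were past 2-fold, 3 of 10 regulators where 27.2% of all genes were. Against F, NB2i had the CAF-1 subunits higher, 2 of 10 (36.3%), and 7 of 10 lower (37.1%), all the others but Rif1, with Dppa2 and Dppa4 past 2-fold, 2 of 10 (27.6%). In that comparison Chaf1a and Trim28 did not pass without NB2i replicate 2 (edgeR adjusted p = 0.0968 and 0.114), and Kdm1a did not pass without F replicate 2 (0.0998), NB2i replicate 1 (0.061) or NB2i replicate 2 (0.0761). Several of these shares are near those of all genes, and such a share is not a result about the regulators. The median log2 change over the 3 activators was −1.47 in NB2i against −F, where over the 7 repressors it was −0.02 and over all genes 0.01.

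The effect of going to 2i without feeders (NB2i against −F, which also exchanges serum for N2B27) was set against that of 2i on feeders (F2i against F) in 1 contrast. The changes differed for 7 of the 10 regulators. The contrast was positive for Chaf1a and Chaf1b, 2 of 10 (26.1% of all genes), and negative for Dppa2, Dppa3, Dppa4, Kdm1a and Rif1, 5 of 10 (22.8%), and Dppa2 was past 2-fold, 1 of 10 (16.5%). Kdm1a, for instance, was higher with 2i on feeders and lower without (contrast −0.45 on the log2 scale, SE 0.059, edgeR adjusted p = 1.89e-06), while for Ehmt2, which fell in both, the contrast did not pass (0.01, SE 0.058, edgeR adjusted p = 0.91). Chaf1a did not pass without −F replicate 1 (edgeR adjusted p = 0.101), F2i replicate 1 (0.0598) or NB2i replicate 2 (0.109), Rif1 did not pass without F2i replicate 1 (0.0864), and Setdb1 passed without −F replicate 1 (0.00956). The Zscan4 sum rose on feeders and fell without them (contrast −5.26, SE 0.36, edgeR adjusted p = 8.85e-11).

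Partners of the repressor complexes, 27 genes, moved both ways. In F against −F 5 rose and 7 fell, in F2i against F 12 rose and 9 fell, and in NB2i against F2i 10 rose and 7 fell, with medians of −0.02, 0.05 and 0.06 on the log2 scale. Over all genes, 21.7% were higher and 18.5% lower in F against −F, and 27.3% and 27.4% in F2i against F. In NB2i against F2i the shares were 33.3% and 30.8%. Counts near these shares, in this and the following lists, are not results about the lists. Rcor2, a CoREST scaffold that binds Kdm1a, was the gene that fell most, from 70.4 ± 0.764 FPKM (SD, n = 2) in F2i to 31.2 ± 0.516 in NB2i (log2 change −1.15, edgeR adjusted p = 2.28e-15). Rcor3, of the same family, rose from 2.39 ± 0.00707 FPKM in −F to 4.64 ± 0.134 in NB2i (log2 change 1.01, edgeR adjusted p = 5.01e-07). Ehmt1 (GLP), the partner of Ehmt2 and picked here after its values were seen, had means of 24.5 FPKM in −F, 20.8 in F, 14.7 in F2i and 14.5 in NB2i. Its fall from F to F2i was 0.47 on the log2 scale (edgeR adjusted p = 5.09e-07), and Ehmt2 fell by 0.33 in the same comparison.

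Of 31 other genes described as repressors of the 2-cell-like state, 7 rose and 4 fell in F against −F, 4 rose and 10 fell in F2i against F, and 11 rose and 11 fell in NB2i against F2i. In the same order, the shares of all genes higher and lower were 21.7% and 18.5%, 27.3% and 27.4%, and 33.3% and 30.8%. Uhrf1, which guides maintenance DNA methylation, rose from 121 ± 4.07 FPKM in −F to 233 ± 4.89 in NB2i (log2 change 1.02, edgeR adjusted p = 3.46e-15). Myc, a growth regulator, dropped from 11.2 ± 0.983 to 0.920 ± 0.0424 FPKM in the same comparison (log2 change −3.54, edgeR adjusted p = 1.4e-16). Among 30 genes of DNA replication, the process that CAF-1 attends, 11 rose and 4 fell in F against −F and 6 rose and 11 fell in NB2i against F2i, and none changed 2-fold in any of the pairwise comparisons. The same shares of all genes stand beside these counts.

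Other genes described as activators of the state include Dux and Tbx3. Of 11 listed, 7 were tested, and 4 rose and 1 fell in F against −F, 6 rose and 1 fell in F2i against F, and 1 rose and 5 fell in NB2i against F2i. NB2i had 4 higher and 3 lower against F, and 3 higher and 3 lower against −F. Over all genes, 36.3% were higher and 37.1% lower in NB2i against F, and 36.9% and 35.4% against −F. For the comparisons before these, the shares are those given for the complex partners. Dux, the transcription factor through which Dppa2 and Dppa4 act, had means of 0.0950 FPKM in −F, 0.535 in F and 1.08 in F2i and was listed at 0 in both NB2i samples (edgeR adjusted p = 2.79e-08 against F2i). Obox6, a homeobox gene, rose from 0.220 FPKM in −F to 15.4 ± 0.955 in F2i (log2 change 6.15, edgeR adjusted p = 2.16e-17). At 3.49 ± 0.226 FPKM in NB2i, Obox6 was below F2i but above −F (log2 change 4.01, edgeR adjusted p = 5.46e-12) and above F (log2 change 1.16, edgeR adjusted p = 2.18e-06). Gm20767 rose from 0.455 ± 0.00707 FPKM in −F to 9.06 ± 0.0990 in F2i (log2 change 4.38, edgeR adjusted p = 3.46e-15).

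The further genes of the 2-cell embryo rose and fell with the Zscan4 sum from −F to F, from F to F2i and from F2i to NB2i. Of 27 listed, 21 were tested, and 19 rose and 0 fell in F against −F, 16 rose and 0 fell in F2i against F, and 0 rose and 20 fell in NB2i against F2i. In NB2i against −F, 1 rose, 8 fell and 12 of 21 did not pass, where 36.9% of all genes were higher and 35.4% lower. The number that fell there is near its share and is not a result about these genes. For the comparisons before it, the shares of all genes are those given for the complex partners. The fibroblast markers had 14 of 14 higher, 11 of 14 higher and 14 of 14 lower in the first 3 of these comparisons, and 2 higher and 9 lower in NB2i against −F. Gm5662 went from 0.115 ± 0.106 FPKM in −F to 11.6 ± 0.834 in F2i (log2 change 6.61, edgeR adjusted p = 1.01e-15). Tmem92 (5.94 ± 0.113 FPKM in F2i) and Gm8300 (4.58 ± 0.156) were listed at 0 in NB2i. Gm4340, at 3.56 ± 3.38 FPKM in F2i and listed at 0 in F, differed widely between its F2i replicates.

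**Figure D4:**
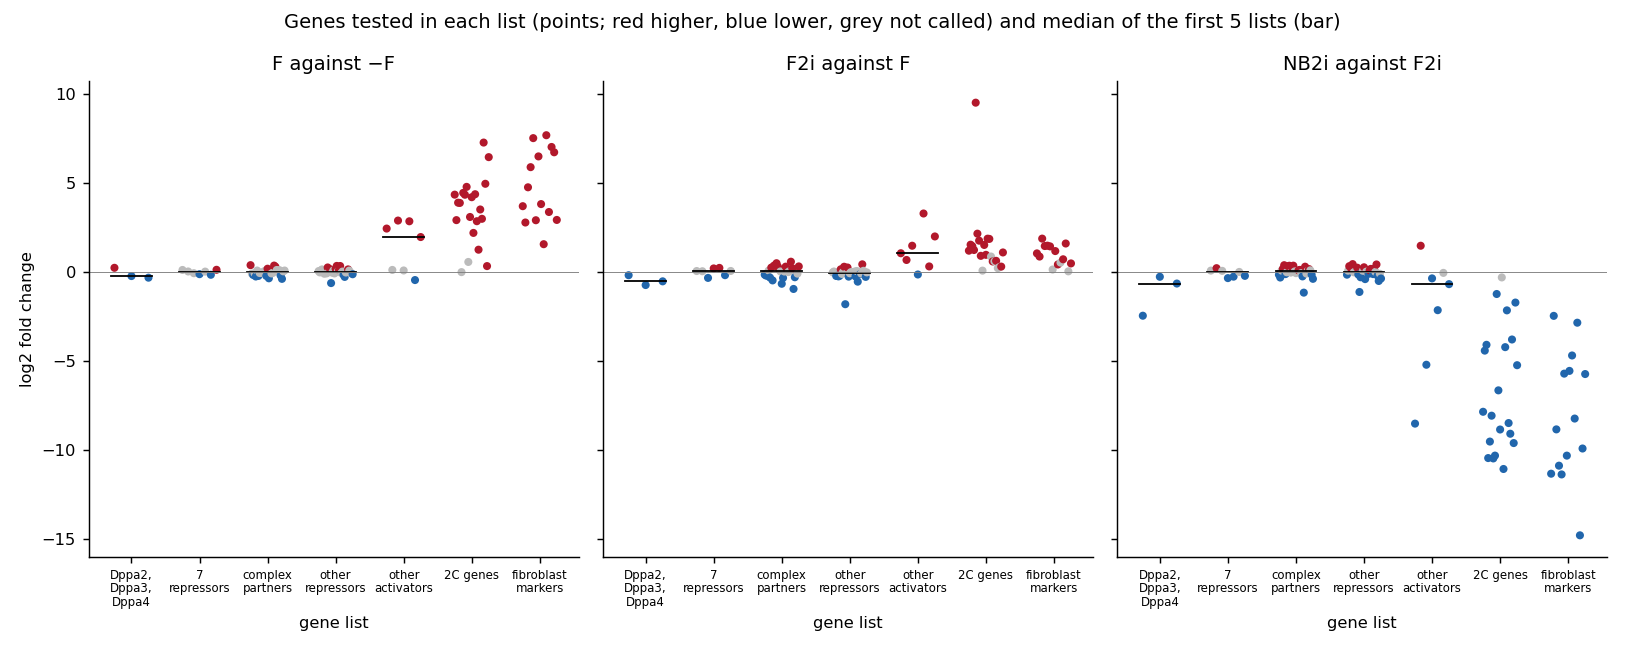
Log2 fold changes of the tested genes of each list in F against −F, F2i against F and NB2i against F2i, with points in red (higher), blue (lower) or grey (not called by edgeR) and bars at the medians of the first 5 lists. The medians of the 7 repressors, the complex partners and the other repressors lie near 0. Single genes lie away from it, among them Dppa2 (−2.45), Dppa4 (−0.64) and Rcor2 (−1.15) in NB2i against F2i and Myc (−1.80) in F2i against F. Genes of the 2-cell embryo and fibroblast markers mostly rise together and fall together. For a gene at 0 counts in a condition the plotted size depends on edgeR's prior count.

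Genes near the activators were read as well. Morc1, a silencer of transposons in germ cells that lies on chromosome 16 near Dppa2 and Dppa4, rose from 10.2 ± 0.198 FPKM in −F to 39.1 ± 1.17 in NB2i (log2 change 2.01, edgeR adjusted p = 7.94e-19), where both activators fell. Nanog, a pluripotency factor near Dppa3 on chromosome 6, had means of 204 FPKM in −F, 270 in F, 473 in F2i and 299 in NB2i and rose by 1.29 on the log2 scale in F2i against −F (edgeR adjusted p = 4.25e-17), where Dppa3 fell. Of 8 neighbours listed, 5 were tested, and 2 rose and 0 fell in F against −F, 4 rose and 0 fell in F2i against F, and 3 rose and 2 fell in NB2i against F2i. The shares of all genes in these comparisons are those given for the complex partners.

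The genes whose pattern was most like an activator's were sought among 11986 genes by the root-mean-square difference of centred log2 levels over the 4 condition means. For Dppa2 they were Rcn3 (0.0498), Zyx (0.0593) and Acan (0.0911). Dppa3 was closest to D630045J12Rik (0.0156), Rps6ka4 (0.0306) and Kctd13 (0.0375), and Dppa4 to Cpne8 (0.0105), Snn (0.0156) and Inpp1 (0.0338). By the same measure Dppa4 was 0.139 from Dppa3 and 0.684 from Dppa2, its neighbour and binding partner. With 4 points a likeness of this kind is only a description. The 7 repressors were left out, since their means span less than 1.5-fold.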

How the data were processed

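RNA-seq of 8 samples of N33 ESCs in 4 culture conditions was analysed, grouped by the sample labels. The authors sequenced poly-A RNA, mapped reads to mm10 with Bowtie2 (version not given in the sources used here) and quantified genes with RSEM. The deposited expected count is RSEM's estimated count of reads per gene, not normalized (29.8% of values were not whole), and the deposited FPKM divides it by transcript length and depth.

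Expected counts were rounded and fitted with edgeR 4.0.16 (glmQLFit and glmQLFTest, R 4.3.3) over all 8 samples with condition as the factor, TMM normalization and 4 residual degrees of freedom. A gene needed 10 or more counts in 2 or more samples, which left 15287 genes to test. Benjamini-Hochberg adjustment was made for each comparison over all of them, and a gene was called at an adjusted p under 0.05. Standard errors were derived from the log2 change and the F value. The fitted biological coefficient of variation was 3.253%, so small changes pass the model; an exact permutation of 2 against 2 samples cannot go below 0.3333. A gene absent from a sample's table was taken as 0. The scripts were tested on simulated data.

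Alternatives were DESeq2 1.42.0, its size factors in edgeR, other filters on low counts, only the groups compared, a replicate block, each sample left out, and limma 3.58.1 on log2(FPKM + 1) and log2(FPKM + 0.1) for genes of at least 0.5 FPKM, whose folds are on that scale. Members and lists were chosen with earlier results of these data known. From each further list up to 4 genes are named, those with the largest rises and falls past an adjusted p of 0.05 and 2-fold with at least 1 FPKM in the higher condition; for regulators spanning at least 1.5-fold, the 3 genes most alike.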

Additional observations from a re-analysis of the deposited data

Results flagged for a closer look

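Results were looked at again where the change from −F to NB2i differed from that from F to F2i by edgeR's test of the difference itself. The former also exchanges serum for N2B27, so the role of feeders, serum and medium in these differences cannot be told apart. On the log2 scale the difference was −2.21 for Dppa2 (adjusted p = 6.91e-15), −0.95 for Dppa4 (adjusted p = 4.82e-10) and −0.48 for Dppa3 (adjusted p = 0.000207), and all 3 fell in both comparisons but further without feeders. It was −0.45 for Kdm1a (adjusted p = 1.89e-06) and −0.23 for Rif1 (adjusted p = 0.00931), which rose with 2i on feeders. Among the CAF-1 subunits, the difference was 0.26 for Chaf1b (adjusted p = 0.00263) and 0.21 for Chaf1a (adjusted p = 0.0194), which did not pass in F2i against F. The Zscan4 sum gave −5.26 (adjusted p = 8.85e-11). Chaf1a lost its call in 8 of 15 alternatives and Rif1 in 3 of 15.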

How the results depend on the processing

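No called result changed direction, and the log2 changes that changed sign had not passed the test. The number of genes called and the test of the Zscan4 sum kept their side in all alternatives. Counts of regulators called moved in both directions. In F against −F, 2 were higher, 1 with only the groups compared and 0 with limma on log2(FPKM + 1) or log2(FPKM + 0.1), and 4 were lower, 3 under each of these alternatives. With limma on log2(FPKM + 0.1), 1 was higher in F2i against F in place of 2, and 4 lower in place of 5. With either limma fit, 1 was higher in F2i against −F (3 in edgeR), in NB2i against F (2) and in the difference of differences (2). That last count was also 1 with DESeq2, with its size factors in edgeR and with no filter on low counts. Leaving out 1 sample gave 1 to 3 higher and 2 to 4 lower in F against −F, the 2 without −F replicate 2 or F replicate 2. It gave 4 to 5 lower in F2i against F and 2 to 4 higher in F2i against −F. It gave 1 to 2 higher and 5 to 7 lower in NB2i against F, the 1 and the 5 without NB2i replicate 2. In the difference of differences it gave 4 to 6 lower and 1 to 2 higher, the 1 without −F replicate 1, F2i replicate 1 or NB2i replicate 2. With the replicate block, 2 were higher and 4 lower in F against −F, and the block changed no other call. Replicate numbers did not pair the samples, as deviations correlated at a mean r of −0.0112 over 6 pairs of groups. With 2 samples a condition and spans of at most 1.368-fold in the repressors, single calls rest on the spread that edgeR shares across genes.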
